A study of Mus musculus with 14 samples.

Results

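The NRF2 antioxidant response was followed through 10 genes: Nfe2l2, which encodes the transcription factor NRF2, its repressor Keap1, and the target genes Gclc, Gclm, Txnrd1, Srxn1, Nqo1, Hmox1, Pir and Osgin1. They were chosen by name, with earlier results of these data known. They are 10 of the 19938 mouse genes that the arrays measured with a probe set assigned to a single gene. Each of the 10 had exactly 1 such probe set, so no choice between probe sets was needed. None of them lay among the dimmest 40% of genes.

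RNA from C57BL/6 mice was hybridised to 14 Affymetrix expression arrays, 2 per group, and the question put by the study's title was whether R-spondin 1 and noggin support the expansion of stem cells from undamaged gallbladder. The groups were differentiated gallbladder organoids, undifferentiated gallbladder organoids, liver organoids, small intestine organoids, and whole gallbladder, liver and small intestine tissue. Organoids are self-organising epithelial cultures grown in Matrigel, and the labels give 1 expansion medium for all of them, with R-spondin 1, noggin, 50 ng/mL each of EGF, FGF10 and HGF, 10 mM nicotinamide and 1.25 uM N-acetylcysteine. For the differentiated gallbladder organoids, R-spondin 1, noggin and nicotinamide had been withdrawn for 2 weeks. N-acetylcysteine is itself an antioxidant and cysteine donor, and the labels list it for every organoid group. They give no separate account of the medium of liver and small intestine organoids, so whether it was the same cannot be told from them. Tissue had not been cultured. Sex, age and pooling of animals are not given in the sources used here, and the labels do not say whether the 2 replicates of a group were separate animals or cultures. The p-values therefore rest on the spread between these arrays, which may be technical.

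NRF2 is held in the cytoplasm by KEAP1, which hands it to a cullin 3 ubiquitin ligase for degradation. When oxidants or electrophiles modify cysteines of KEAP1, NRF2 escapes, enters the nucleus and, paired with a small MAF protein, binds antioxidant response elements in its target genes. The targets make glutathione, reduce thioredoxin and peroxiredoxins, and detoxify quinones and heme, functions that are prominent in liver, biliary and intestinal epithelium because these cells meet bile acids and xenobiotics. The level of the NRF2 protein is set largely by its degradation, which arrays of mRNA do not measure.

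The promoters of 4 target genes are shown because the comparisons further on turn on their mRNAs. Promoters of 8 of the 10 genes were found in a RefSeq table on build GRCm38.p6, each covering 250 bases before the start site to 50 bases after it, and those of Gclc and Hmox1 were not analysed here. Capitals mark matches, on either strand, to TGACNNNGC, the core of the antioxidant response element, or to TGANTCAGC, a motif bound by NRF2 with small MAF proteins that overlaps the core where N is C. Positions count the start base as 1 and the base before it as -1. All 4 are written 5′ to 3′ on the gene's own strand. Srxn1 lies at chr2:152105274-152105573 on the plus strand, Pir at chrX:164269181-164269480 on the plus strand, Osgin1 at chr8:119436897-119437196 on the plus strand, and Nqo1 at chr8:107403156-107403455 on the minus strand.
Srxn1: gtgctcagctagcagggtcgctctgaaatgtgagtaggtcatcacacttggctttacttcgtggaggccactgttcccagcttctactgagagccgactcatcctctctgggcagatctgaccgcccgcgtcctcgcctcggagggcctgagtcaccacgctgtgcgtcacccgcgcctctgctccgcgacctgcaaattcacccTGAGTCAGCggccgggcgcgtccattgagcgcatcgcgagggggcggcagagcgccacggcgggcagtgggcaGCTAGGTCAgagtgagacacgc
Pir: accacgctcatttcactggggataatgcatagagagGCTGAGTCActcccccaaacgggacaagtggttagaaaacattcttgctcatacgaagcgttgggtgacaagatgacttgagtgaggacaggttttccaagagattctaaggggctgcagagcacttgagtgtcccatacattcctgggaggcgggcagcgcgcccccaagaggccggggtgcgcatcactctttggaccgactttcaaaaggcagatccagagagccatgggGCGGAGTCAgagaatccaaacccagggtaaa
Osgin1: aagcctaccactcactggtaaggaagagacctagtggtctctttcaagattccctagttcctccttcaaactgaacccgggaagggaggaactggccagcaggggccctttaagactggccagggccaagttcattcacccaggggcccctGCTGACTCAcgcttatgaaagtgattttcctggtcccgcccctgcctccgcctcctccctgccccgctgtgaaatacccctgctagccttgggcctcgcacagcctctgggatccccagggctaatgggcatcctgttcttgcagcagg
Nqo1: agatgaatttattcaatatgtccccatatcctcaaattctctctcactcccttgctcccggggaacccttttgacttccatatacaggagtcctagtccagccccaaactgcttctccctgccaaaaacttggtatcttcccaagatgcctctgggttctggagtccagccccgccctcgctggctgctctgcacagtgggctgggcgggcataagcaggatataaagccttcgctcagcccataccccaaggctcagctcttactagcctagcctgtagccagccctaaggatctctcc

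Srxn1 held TGANTCAGC at positions -45 to -37 from the start site and TGACNNNGC on the opposite strand at 29 to 37. In Pir a stretch that matched both motifs lay on the opposite strand at -214 to -206, and another match to TGACNNNGC at 20 to 28. The single match in Osgin1, to TGANTCAGC, was on the opposite strand at -99 to -91. This Osgin1 window lies inside the gene, which spans 119425882 to 119446257, and so not at its 5′ end. These letters were not found in the Nqo1 window, nor in that of Keap1. Nfe2l2, Gclm and Txnrd1 each had 1 match to TGACNNNGC, in Txnrd1 in the promoter numbered 2. Either motif was present in 6 of the 8 genes, against 14.7% of all 27025 genes in the table. TGACNNNGC was in 5 of the 8 against 14% of all genes, and TGANTCAGC in 3 of the 8 against 1.37%. A match of letters is a description of the sequence and does not show that a protein binds there.

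All levels are log2 signals as deposited, so that a difference of 1 is a doubling. A gene was counted as changed, or called, where limma's moderated test, fitted on all 19938 genes and 14 arrays, gave a Benjamini-Hochberg adjusted p under 0.05. With 2 arrays on each side, the smallest two-sided p of an exact permutation test is 0.333, and so few arrays limit how precise any value here can be. Levels of different genes come from different probe sets and are not compared with each other. No detection calls were used here, so the level that equals background is not known. In some groups Nqo1 ranked low among all genes, at percentile 17.8 in gallbladder organoids, 19.7 in liver organoids and 34.2 in gallbladder tissue. Pir was at percentile 39.8 in small intestine tissue. Differences that rest on such low levels may be limited by background.

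Some listed markers fell in the labelled groups and others did not, and the tissues held additions. Sucrase-isomaltase (Sis) stood at 13.38 to 13.87 in the small intestine groups and at 4.91 to 5.27 elsewhere. Mucin 1 (Muc1) was at 13.36 to 13.83 in gallbladder tissue and in gallbladder and liver organoids. Other genes on the gallbladder epithelium list did not mark gallbladder. Agr2 read 6.90 to 7.43 in the gallbladder groups and 12.59 to 12.90 in the small intestine groups. Muc5b stayed at 6.61 to 6.98 and Cldn18 at 6.23 to 7.43 on all arrays. Gallbladder tissue also held hepatocyte RNA: albumin (Alb) read 14.30 on both of its arrays and 14.34 and 14.35 in liver tissue, while gallbladder organoids had 6.60 and 6.33. Replicate 2 of small intestine tissue held pancreatic acinar RNA, with carboxypeptidase A1 (Cpa1) at 13.52 there and 6.79 in replicate 1. Bile duct cells were a small part of liver tissue, where keratin 19 (Krt19) was 7.29 and 7.41, against 13.76 and 13.77 in liver organoids. The pooled SD between replicates, over all genes, was 0.0952 to 0.136 for organoids, against 0.289 to 0.404 for tissues. In such mixed RNA, fewer cells of a type and less RNA per cell cannot be told apart.

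**Figure D1:**
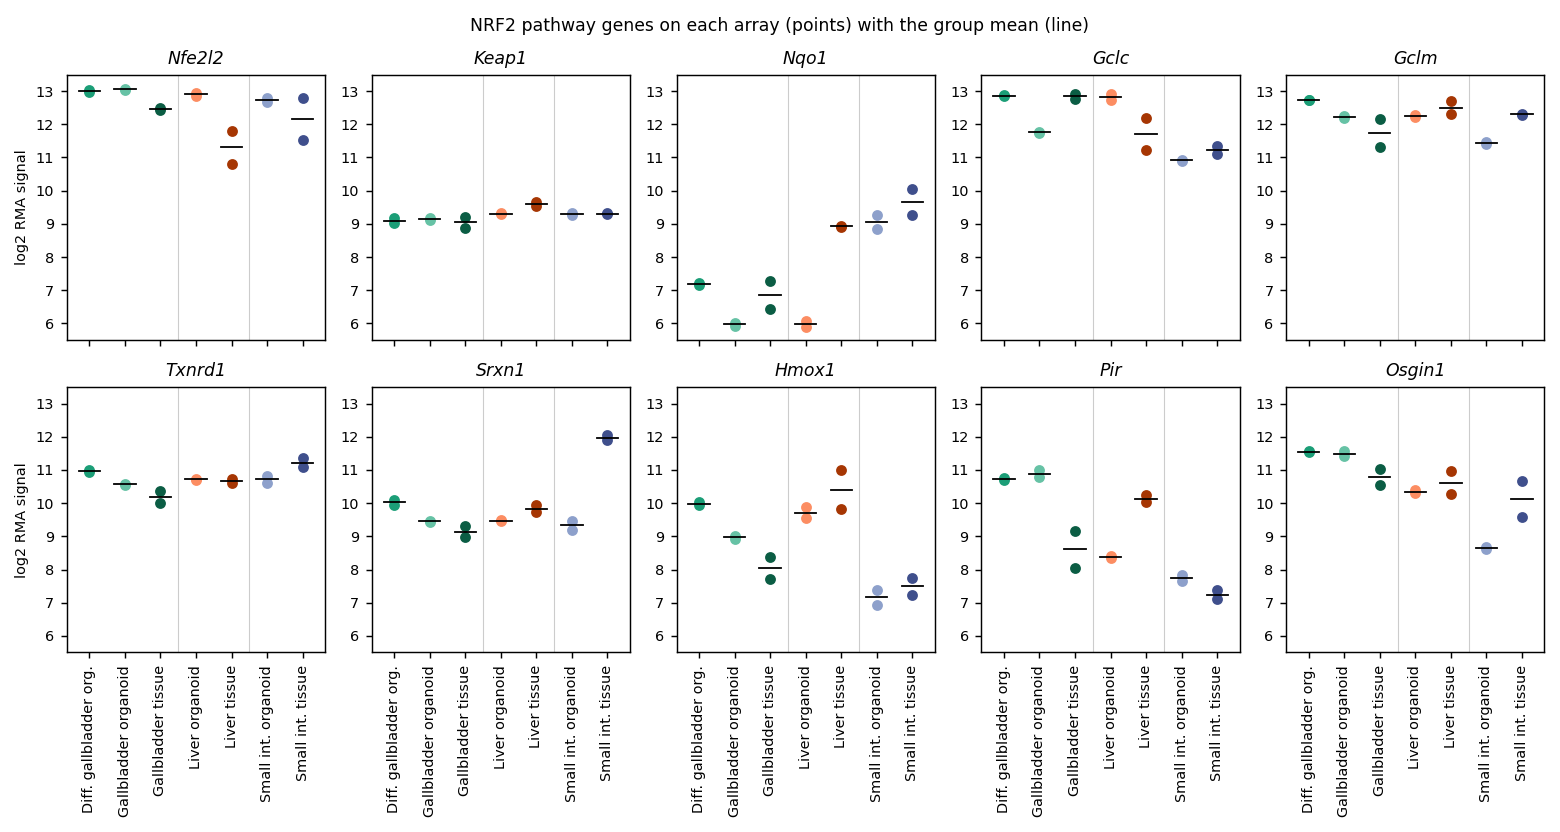
Log2 signal of the 10 genes on each of the 14 arrays, with 1 panel per gene, 1 point per array and a line at each group's mean. Nqo1 spans 3.70 log2 units between its highest and lowest group and Keap1 0.56, and the 2 points of an organoid group lie closer together than those of most tissue groups.

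Across the 7 group means most of the 10 genes had a wider span than the median gene. The median span from the lowest to the highest group was 2.39 log2 units for the 10 genes and 0.98 for all genes, and 9 of the 10 lay above that median. The 10 genes had been chosen with earlier results of these data known. The median of all genes also includes the dimmest genes, among which no member lay. The spans were not compared with those of genes of similar signal, so they do not show that the pathway as such varied more. Nqo1 spanned 3.70, Pir 3.66, Hmox1 3.25, Osgin1 2.90 and Srxn1 2.83. Gclc spanned 1.95, Nfe2l2 1.74, Gclm 1.30, Txnrd1 1.03 and Keap1 0.56.

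Of the regulators, Nfe2l2 was highest in organoids and Keap1 varied least of the 10 genes. Nfe2l2 was at 12.96 and 13.02 in differentiated gallbladder organoids, 13.06 and 13.04 in gallbladder organoids, and 12.85 and 12.95 in liver organoids. Small intestine organoids had 12.67 and 12.79. In tissue Nfe2l2 read 12.48 and 12.43 in gallbladder, 10.80 and 11.81 in liver, and 11.54 and 12.78 in small intestine. Every gallbladder and liver organoid array was thus above every tissue array for Nfe2l2, whereas the lower small intestine organoid array lay just below the higher small intestine tissue array. Keap1 stayed between 8.88 and 9.67 on all 14 arrays. Its highest values were 9.67 and 9.54 in liver tissue, followed by 9.29 and 9.33 in liver organoids, and the other groups overlapped in part, from 9.27 and 9.32 in small intestine organoids to 9.17 and 9.03 in differentiated gallbladder organoids, 9.12 and 9.18 in gallbladder organoids, 8.88 and 9.21 in gallbladder tissue and 9.29 and 9.32 in small intestine tissue.

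The targets were highest in different groups. Nqo1, which reduces quinones by 2 electrons at a time, and Srxn1, the sulfiredoxin that restores overoxidised peroxiredoxins, had their highest mean in small intestine tissue. Hmox1, heme oxygenase 1, had its highest mean in liver tissue, whose arrays overlapped with those of differentiated gallbladder organoids, and for Nqo1 small intestine tissue overlapped with small intestine organoids, so neither order is resolved. Pir, the iron-binding nuclear protein pirin, and Osgin1, an inducible growth inhibitor, were highest in the 2 gallbladder organoid groups, while Gclm and Gclc, the modifier and catalytic subunits of the enzyme that catalyses the first step of glutathione synthesis, had their highest mean in differentiated gallbladder organoids. For Gclc that group overlapped with gallbladder tissue and liver organoids, so the order of these 3 is not resolved.

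Withdrawal of R-spondin 1, noggin and nicotinamide was followed by higher Gclc and Nqo1 in gallbladder organoids. Gclc had 12.88 and 12.84 in differentiated organoids, against 11.75 and 11.76 in undifferentiated ones. Nqo1 had 7.16 and 7.21 in differentiated organoids, against 5.91 and 6.02 in undifferentiated ones. In both genes the groups lay far apart relative to the gap between replicates, and the differences were 1.10 ± 0.24 for Gclc (SE; 2.15-fold; adjusted p = 0.0269) and 1.22 ± 0.30 for Nqo1 (SE; 2.33-fold; adjusted p = 0.0461).

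Another 4 targets read higher on both differentiated arrays without passing the test. Hmox1 had 10.03 and 9.93 in differentiated organoids, against 8.93 and 9.0 in undifferentiated ones, a difference of 1.02 ± 0.36 (SE; adjusted p = 0.172). Srxn1 had 10.09 and 9.94 in differentiated organoids, against 9.47 and 9.44 in undifferentiated ones, a difference of 0.57 ± 0.14 (SE; adjusted p = 0.0524). For both genes the groups did not overlap. Gclm had 12.74 and 12.72 in differentiated organoids and 12.25 and 12.20 in undifferentiated ones (adjusted p = 0.286). Txnrd1, cytosolic thioredoxin reductase, had 11.01 and 10.95 in differentiated organoids and 10.56 and 10.58 in undifferentiated ones (adjusted p = 0.173). These pairs did not overlap either.

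The remaining members showed no called difference on differentiation. Pir had 10.76 and 10.69 in differentiated organoids and 10.79 and 11.00 in undifferentiated ones, a difference of -0.17 (adjusted p = 0.864). Osgin1 had 11.54 and 11.56 in differentiated organoids, and 11.43 and 11.56 in undifferentiated ones, so its groups touched. Nfe2l2 and Keap1, given above, differed by -0.06 and -0.05 (adjusted p = 0.973 and 0.919).

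Among the marker lists of other cell types, that of hepatocytes differed most in its sum between these groups, with a summed log2 signal of 12.67 to 12.71 in differentiated organoids and 11.03 to 11.16 in undifferentiated ones. That sum was carried by transthyretin (Ttr), at 12.52 and 12.47 in differentiated organoids and 10.15 and 10.45 in undifferentiated ones. Albumin read 6.68 and 6.50 in differentiated organoids and 6.60 and 6.33 in undifferentiated ones, and 2 goblet cell markers read higher in differentiated organoids. Trefoil factor 3 (Tff3) had 12.83 and 12.69 in differentiated organoids, against 9.33 and 9.64 in undifferentiated ones, and Clca1 had 8.75 and 8.71, against 6.92 and 6.89 in undifferentiated ones. The goblet mucin Muc2 read 6.59 and 6.51 in differentiated organoids and 6.86 and 6.84 in undifferentiated ones. The sum of the Paneth and goblet list, 13.94 to 14.03 in differentiated organoids and 13.98 to 14.02 in undifferentiated ones, also held Mmp7, at 13.07 and 13.03 in differentiated organoids and 13.92 and 13.86 in undifferentiated ones. The part of these markers in the differences of Gclc and Nqo1 was not tested.

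As a count, 2 of the 10 genes were called higher and 0 lower, where 4.73% of all genes were called in either direction, 2.8% higher and 1.93% lower. The members' median difference was 0.46, against -0.04 over all genes. The arrays of the 2 groups did not overlap for 8 of the 10 genes, 6 of them higher and 2 lower after differentiation. Over all genes 66.6% did not overlap, 28.4% higher and 38.2% lower.

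The calls of this comparison depended on how the spread was estimated. The fit shares 1 spread over all 14 arrays, and the tissue replicates differ more than the organoid replicates. A fit of these 4 arrays alone called 6 members, adding Gclm, Txnrd1, Srxn1 and Hmox1 to Gclc and Nqo1, with 5353 of 19938 genes called. Leaving out any 1 of the 4 arrays left 0 members called by limma, with 338 to 372 genes called and 3 to 5 members at an unadjusted p under 0.05. Without differentiated replicate 1 or 2, or undifferentiated replicate 1 or 2, the adjusted p of Gclc was 0.169, 0.164, 0.172 and 0.159, and that of Nqo1 0.212, 0.262, 0.264 and 0.202, while the differences themselves stayed at 1.08 to 1.13 for Gclc and 1.17 to 1.27 for Nqo1.

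Of 66 other genes of the pathway listed for comparison, 61 were measured, and in this comparison 3 were higher, 1 was lower and 57 were not called. Slc7a11, the cystine importer that feeds glutathione synthesis, had 11.77 and 11.79 in differentiated organoids, against 10.40 on both undifferentiated arrays (difference 1.38 ± 0.20, SE; adjusted p = 0.0032). The glutathione transferase Gstm1 was 12.44 and 12.49 in differentiated organoids, against 11.30 and 11.24 in undifferentiated ones (difference 1.19 ± 0.21, SE; adjusted p = 0.0105). Extracellular superoxide dismutase, Sod3, was higher by 0.93 ± 0.19 (SE; adjusted p = 0.0225). Nfe2l3, which encodes a transcription factor related to NRF2, fell by 0.98 on the log2 scale (SE 0.19; adjusted p = 0.0144), with 9.03 and 9.07 in differentiated organoids and 10.08 and 9.97 in undifferentiated ones. The median over the 61 genes was 0.09. Leaving out any 1 of the 4 arrays ended the calls of Gstm1 (adjusted p 0.0808 to 0.0967), Sod3 (0.12 to 0.168) and Nfe2l3 (0.0819 to 0.133), and 1 of the 61 genes was called each time. With array weights 17 were higher and 9 lower, with 5720 of all 19938 genes called. In a fit of these 4 arrays alone 19 were higher and 12 lower, with 5353 of all genes called.

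**Figure D2:**
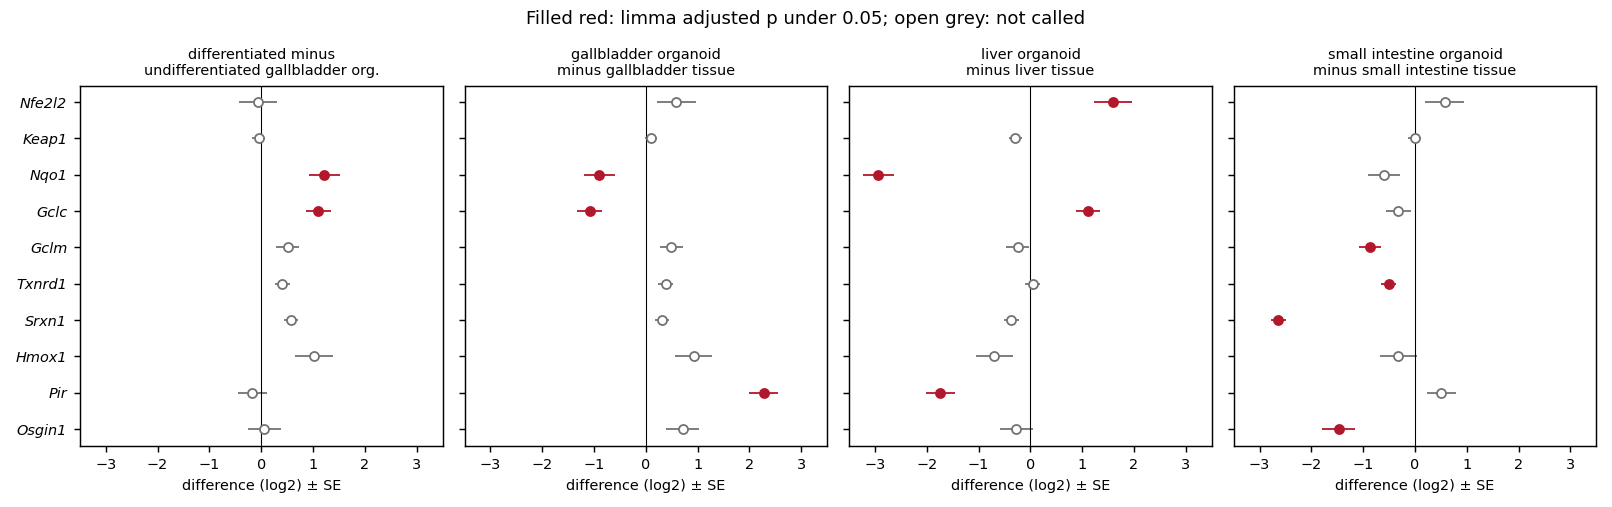
Difference in log2 signal (x axis, ± SE from limma) of the 10 genes in 4 comparisons, each titled with the 2 groups, filled red where the adjusted p is under 0.05. Gclc and Nqo1 are to the right of 0 after differentiation, Pir is right of 0 in the gallbladder panel and left of 0 in the liver panel, and Srxn1 lies at -2.64 in the small intestine panel.

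Organoids were set against the tissue of their organ next. The 3 comparisons are made on separate arrays, but each tissue holds cell types that the epithelial cultures lack. In gallbladder, pirin was the member that stood out. Pir had 10.79 and 11.00 in gallbladder organoids, against 8.06 and 9.17 in gallbladder tissue. The organoid arrays lay above both tissue arrays, which differed from each other by more than the organoid arrays did, and the difference was 2.28 ± 0.28 (SE; 4.84-fold; adjusted p = 0.000131).

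Gclc and Nqo1 were lower in gallbladder organoids than in the tissue. Gclc had 11.75 and 11.76 in organoids, against 12.76 and 12.92 in tissue, a difference of -1.08 ± 0.24 (SE; adjusted p = 0.00419). Nqo1 had 5.91 and 6.02 in organoids, against 6.44 and 7.29 in tissue, a difference of -0.90 ± 0.30 (SE; adjusted p = 0.0294). The higher Nqo1 value was that of tissue replicate 2, and without that array the difference was -0.47 (adjusted p = 0.203). Leaving out gallbladder organoid replicate 1 or replicate 2 also ended the call of Nqo1 (adjusted p = 0.12 and 0.0872).

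Hepatocyte RNA was also lower in gallbladder organoids than in gallbladder tissue. Liver tissue itself had Nqo1 at 8.91 and 8.94, above gallbladder tissue, and Gclc at 11.24 and 12.18, below gallbladder tissue. The 10 hepatocyte markers, all measured, summed to a log2 signal of 11.03 to 11.16 in gallbladder organoids and 16.27 to 17.23 in gallbladder tissue, and their median signal was 12.51 in tissue replicate 1 and 14.08 in replicate 2. Smooth muscle markers, 8 of 8 measured, summed to 10.03 to 10.09 in organoids and 15.59 to 15.98 in tissue. Their part in the differences of Nqo1, Gclc and Pir was not tested.

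The other members read higher in gallbladder organoids, 6 of them on both arrays, but none was called. Hmox1 had 8.93 and 9.0 in organoids, against 7.72 and 8.37 in tissue (difference 0.92 ± 0.36, SE; adjusted p = 0.0566). Osgin1 had 11.43 and 11.56 in organoids, against 11.02 and 10.54 in tissue (adjusted p = 0.0893). Txnrd1 had 10.56 and 10.58 in organoids, against 10.00 and 10.38 in tissue (adjusted p = 0.0544).

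Altogether 1 member was called higher and 2 lower in gallbladder organoids, beside 32.7% and 15.2% of all genes, 47.9% in either direction. The median difference was 0.44 for the members and 0.17 for all genes. The arrays did not overlap for 9 of the 10 members, 7 higher and 2 lower, against 75.6% of all genes, 50.5% higher and 25.1% lower. Quantile normalisation gave 2 calls in each direction, Hmox1 being added. Without gallbladder tissue replicate 2, the array richer in hepatocyte RNA, 6 members were called, 5 higher and 1 lower, and with arrays centred on their medians 6 as well, 4 higher and 2 lower. Leaving out that tissue array, Gclm (0.90), Txnrd1 (0.57), Srxn1 (0.47) and Hmox1 (1.24) joined Pir as higher, with adjusted p of 0.00106, 0.0106, 0.0287 and 0.0355.

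Among the 61 other pathway genes, 15 were higher in gallbladder organoids, 6 lower and 40 not called. Quantile normalisation gave 15 higher and 10 lower, and the fit without gallbladder tissue replicate 1 gave 15 higher and 14 lower. The glutathione list had 5 of 9 higher and none lower, and the list of NADPH-producing enzymes 3 of 5 higher and none lower. The glutathione-degrading enzyme Chac1 was at 10.75 and 10.87 in organoids, against 7.84 and 7.98 in tissue (adjusted p = 0.00312), and Slc7a11 at 10.40 on both organoid arrays, against 8.52 and 7.98 in tissue (adjusted p = 2.05e-05). The list of superoxide and peroxide enzymes had 3 of 4 lower, with catalase, Cat, at 11.75 and 11.97 in organoids, against 12.96 and 13.90 in tissue (adjusted p = 0.000437). Abcc2, the canalicular exporter of glutathione conjugates, was at 6.26 and 6.30 in organoids, against 9.44 and 12.35 in tissue (adjusted p = 0.000347), again highest on the tissue array with more hepatocyte RNA.

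Liver organoids differed from liver tissue in both directions. Nqo1 had 6.08 and 5.89 in liver organoids, against 8.91 and 8.94 in liver tissue, a difference of -2.94 ± 0.30 (SE; 7.66-fold lower; adjusted p = 2.1e-05). Pir had 8.36 and 8.42 in organoids, against 10.02 and 10.25 in tissue, a difference of -1.74 ± 0.28 (SE; adjusted p = 0.000518). Gclc had 12.72 and 12.91 in organoids, against 11.24 and 12.18 in tissue, a difference of 1.11 ± 0.24 (SE; adjusted p = 0.00322).

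Of the regulators, Nfe2l2 was called. It was higher in liver organoids, whose arrays stand above, by 1.59 ± 0.37 (SE; 3.02-fold; adjusted p = 0.00505). The liver tissue replicates lay further apart than those of the organoids for Nfe2l2 and Gclc, with replicate 1 lower in both, and without that array the Gclc difference was 0.64 (adjusted p = 0.0048). All 4 calls held when any 1 of the 4 arrays was left out. Keap1 and Srxn1 were lower and not called here, but both were called when arrays were quantile normalised (Keap1 -0.49, Srxn1 -0.54; adjusted p = 0.00297 and 0.00748) or centred on their medians (-0.37 and -0.45; adjusted p = 0.0187 and 0.024).

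The remaining targets overlapped or missed the threshold. Hmox1 had 9.54 and 9.88 in organoids, and 11.01 and 9.81 in tissue, so the groups overlapped. Srxn1 had 9.48 and 9.45 in organoids, against 9.93 and 9.73 in tissue (adjusted p = 0.0582). Txnrd1 had 10.70 and 10.74 in organoids, and 10.74 and 10.61 in tissue, also overlapping. Gclm (12.23 and 12.29 in organoids, 12.31 and 12.70 in tissue) and Osgin1 (10.40 and 10.30 in organoids, 10.28 and 10.96 in tissue) were not called.

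In total 2 members were called higher and 2 lower, beside 26.7% and 18.2% of all genes, 44.9% in either direction. The members' median was -0.28, against 0.01 for all genes, and the arrays did not overlap for 7 of the 10, against 71.0% of all genes. The cells compared were of different types: the hepatocyte markers summed to 12.73 to 12.84 in liver organoids and 17.36 to 17.52 in liver tissue, and the 12 macrophage markers, all measured, to 10.95 to 11.03 in organoids and 14.44 to 14.46 in tissue. The Kupffer cell marker Vsig4 read 4.90 and 4.76 in organoids and 11.74 and 11.77 in tissue. Their part in the differences was not tested.

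Of the other pathway genes, 19 were higher in liver organoids, 21 lower and 21 not called. All 4 superoxide and peroxide enzymes were lower, catalase with 12.01 and 12.20 in organoids, against 14.02 and 14.07 in tissue (adjusted p = 7.6e-05). Of 12 regulators, 6 were higher and none lower. The gastrointestinal glutathione peroxidase Gpx2 had 11.92 and 11.98 in organoids, against 6.58 and 6.77 in tissue (adjusted p = 7.75e-08), and Slc7a11 10.06 and 10.38 in organoids, against 5.67 and 6.00 in tissue (adjusted p = 1.25e-07). Abcc2 had 5.92 and 6.09 in organoids, against 12.39 and 12.32 in tissue (adjusted p = 2.8e-05).

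In the small intestine the 4 called members were all lower in organoids, and a fit of quantile-normalised arrays called 5, all lower. Srxn1 had 9.19 and 9.47 in small intestine organoids, against 12.05 and 11.89 in small intestine tissue. The groups were separated by several times the gap between replicates, and the difference was -2.64 ± 0.14 (SE; 6.23-fold lower; adjusted p = 1.43e-06). Small intestine tissue was also the group with the highest Srxn1 of all 7, and the other 12 arrays reached at most 10.09.

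Osgin1, Gclm and Txnrd1 were lower as well. Osgin1 had 8.63 and 8.68 in organoids, against 9.59 and 10.66 in tissue (difference -1.47 ± 0.32, SE; adjusted p = 0.00453). Gclm had 11.40 and 11.46 in organoids, against 12.27 and 12.32 in tissue (-0.87 ± 0.22, SE; adjusted p = 0.0111). Txnrd1 had 10.61 and 10.83 in organoids, against 11.36 and 11.09 in tissue (-0.51 ± 0.14, SE; adjusted p = 0.0201). Without small intestine organoid replicate 1 the adjusted p was 0.0613 for Gclm and 0.148 for Txnrd1, which left 2 of the 4 calls, and without small intestine tissue replicate 1 it was 0.124 for Txnrd1.

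Osgin1 read higher on tissue replicate 2, the array with pancreatic acinar RNA. The 6 acinar markers measured, of 8, summed to 10.46 to 10.49 in small intestine organoids, 9.69 in tissue replicate 1 and 15.61 in tissue replicate 2. Without that replicate Osgin1 differed by -0.94 (adjusted p = 0.0219). Nfe2l2 also read higher on tissue replicate 2 (12.78) than on replicate 1 (11.54). Srxn1, given above, read slightly higher on replicate 1. Leukocyte and macrophage markers were also higher on tissue replicate 2, with medians of 8.90 and 8.48, against 7.96 and 7.39 on replicate 1. Markers of other cell types were also lower in the organoids. Smooth muscle markers summed to 9.70 to 9.86 in small intestine organoids and 14.20 to 14.39 in tissue, fibroblast markers to 10.99 to 11.22 in organoids and 13.18 to 13.33 in tissue, and leukocyte markers, 9 of 10 measured, to 9.16 to 9.22 in organoids and 11.14 to 12.46 in tissue. The part of acinar RNA and of these other cell types in the differences of the members was not tested.

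Nqo1 and Pir, which were lower in liver organoids than in liver tissue, were not called in the small intestine. Nqo1 had 8.84 and 9.28 in organoids, and 9.27 and 10.06 in tissue, overlapping. Pir had 7.65 and 7.84 in organoids, against 7.37 and 7.10 in tissue. Gclc (10.92 and 10.90 in organoids, 11.11 and 11.35 in tissue) and Hmox1 (6.94 and 7.39 in organoids, 7.24 and 7.74 in tissue) were not called either.

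This gives 0 members higher and 4 lower, beside 20.2% and 15.6% of all genes, 35.8% in either direction, with a median of -0.42 for the members and -0.02 for all genes. The arrays did not overlap for 6 of the 10, against 67.8% of all genes. Of the other pathway genes 13 were higher in organoids, 12 lower and 36 not called, with a median of 0.05. Without small intestine organoid replicate 1 the counts were 8 higher and 7 lower. Of 17 detoxification enzymes 8 were higher and 1 lower, led by the microsomal epoxide hydrolase Ephx1, at 11.97 and 11.74 in organoids, against 8.90 and 10.19 in tissue (adjusted p = 0.000399). The glutathione list had 1 of 9 higher and 4 lower, among them Gpx3, at 9.13 and 8.11 in organoids, against 10.53 and 10.98 in tissue (adjusted p = 0.000781).

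**Figure D3:**
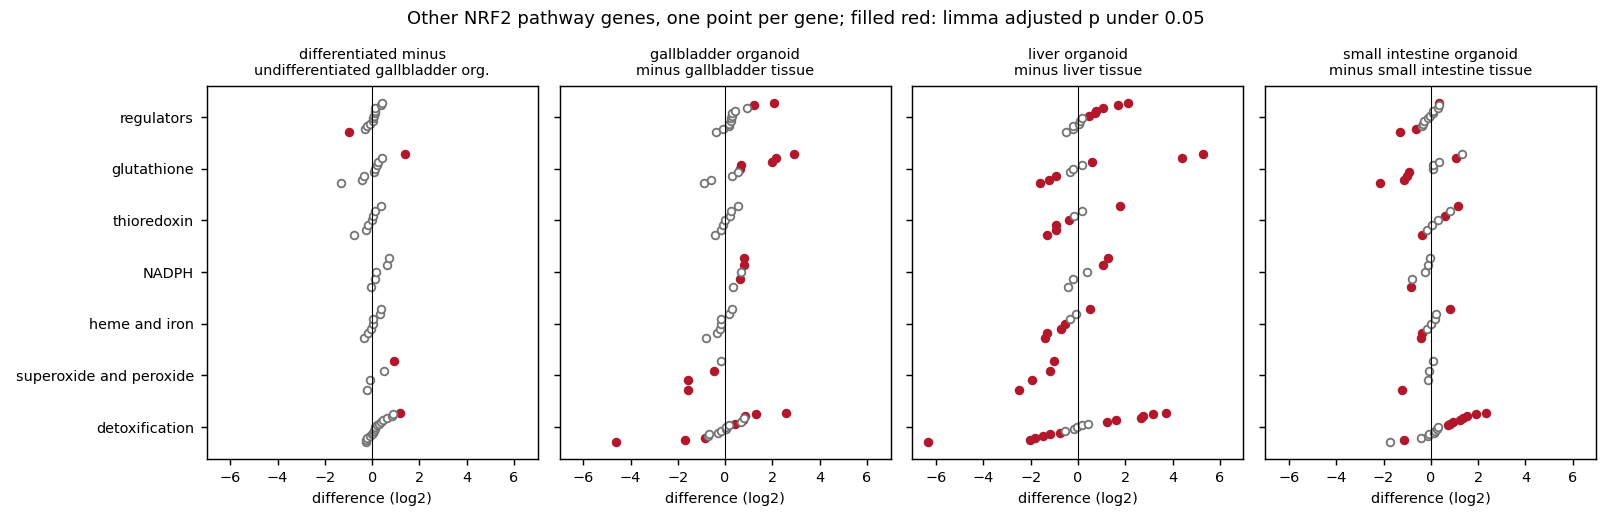
Difference in log2 signal (x axis) of the 61 other pathway genes, 1 point per gene, in rows by list and in 1 panel per comparison, filled red where limma's adjusted p is under 0.05. After differentiation 4 points are filled, and in liver all 4 superoxide and peroxide enzymes lie left of 0 and are filled.

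Averaged over the 3 organs, organoids differed from tissue in 3 members. Srxn1 was lower in organoids, with a difference of -0.90 ± 0.08 (SE; adjusted p = 7.56e-06), and so was Nqo1, with -1.48 ± 0.17 (SE; adjusted p = 3.96e-05). Nfe2l2 was higher by 0.92 ± 0.21 (SE; adjusted p = 0.00419). These calls held without any single array, and a fit of quantile-normalised arrays called 1 more member lower. At the same time 53.7% of all genes were called in this average, 33.7% higher and 19.9% lower. The averages hide unequal parts: for Srxn1 the small intestine gave the only called difference among the 3 organs, and for Nqo1 the small intestine gave none.

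Whether the step between tissue and culture differed between organs was tested with interaction terms of the same fit. Pir had the largest such difference. Its organoid minus tissue difference in gallbladder exceeded that in liver by 4.02 ± 0.40 log2 units (SE; adjusted p = 6.12e-05), with opposite signs in the 2 organs, and exceeded that in small intestine by 1.77 ± 0.40 (SE; adjusted p = 0.00727). The term for Gclc between gallbladder and liver was -2.19 ± 0.34 (SE; adjusted p = 0.000843), also with opposite signs. For Srxn1 the small intestine stood apart: the term was 2.95 ± 0.20 for gallbladder over small intestine (SE; adjusted p = 8.74e-06) and 2.27 ± 0.20 for liver over small intestine (SE; adjusted p = 1.82e-05). These 3 terms share arrays and are not independent of each other.

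By count, 4 members were called higher and 1 lower in the gallbladder term against liver, beside 22.7% and 17.1% of all genes, 39.8% in either direction. The gallbladder term against small intestine had 5 higher and 0 lower, beside 22.3% and 14.3%, 36.6% in either direction. In the liver term against small intestine 2 were higher and 2 lower, beside 19% and 16.2%, 35.2% in either direction. The number of members called in the gallbladder term against liver moved with single arrays, and the number of all genes called changed in the same fits. The calls of Hmox1 and Srxn1 ended without either gallbladder organoid array or either liver organoid array. They also ended without gallbladder tissue replicate 1 or liver tissue replicate 1. The Hmox1 term of 1.62 was 1.03 without liver tissue replicate 1. Calls also changed without gallbladder tissue replicate 2. The median of all genes was itself shifted by 0.14 in the gallbladder term against liver and by 0.13 in that against small intestine.

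The organoids of the 3 organs differed in several targets, and a difference in medium between them, on which the labels are not specific, cannot be told apart from the organ. These comparisons share arrays with the ones above. Pir was higher in gallbladder than in liver organoids, 10.79 and 11.00 against 8.36 and 8.42, by 2.50 ± 0.28 (SE; 5.67-fold; adjusted p = 0.000443). Against small intestine organoids, with 7.65 and 7.84, gallbladder organoids were higher in Pir by 3.15 ± 0.28 (SE; 8.86-fold; adjusted p = 1.58e-05). Osgin1 followed the same order of groups, and its difference between gallbladder and small intestine organoids was 2.84 ± 0.32 (SE; adjusted p = 7.34e-05).

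Osgin1 and Gclc also passed the test between gallbladder and liver organoids, Osgin1 with 1.14 ± 0.32 (SE; adjusted p = 0.0425) and Gclc with -1.06 ± 0.24 (SE; adjusted p = 0.0176). Both calls ended when any 1 of the 4 arrays was left out, with adjusted p of 0.137 to 0.207 for Osgin1 and 0.0629 to 0.129 for Gclc, leaving Pir as the 1 member called. Altogether 2 members were higher and 1 lower in gallbladder organoids, beside 6.17% and 6.52% of all genes, 12.7% in either direction. For Nqo1 these organoids overlapped, with 5.91 and 6.02 in gallbladder organoids and 6.08 and 5.89 in liver organoids. Both levels ranked low among all genes, so whether either stood above background is not known.

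Nqo1 was lower in gallbladder and in liver organoids than in small intestine organoids. Against small intestine organoids, with 8.84 and 9.28, its difference was -3.09 ± 0.30 in gallbladder organoids (SE; 8.53-fold lower; adjusted p = 2.5e-05) and -3.07 ± 0.30 in liver organoids (SE; 8.41-fold lower; adjusted p = 2.7e-05). Hmox1 differed the opposite way, with 8.93 and 9.0 in gallbladder organoids and 9.54 and 9.88 in liver organoids, against 6.94 and 7.39 in small intestine organoids. The Hmox1 differences were 1.80 ± 0.36 for gallbladder (SE; adjusted p = 0.00313) and 2.55 ± 0.36 for liver (SE; adjusted p = 0.000405). The macrophage markers summed to 11.04 to 11.05 in gallbladder, 10.95 to 11.03 in liver and 11.87 to 12.12 in small intestine organoids. The higher sum was carried by lysozyme 2 (Lyz2), at 11.48 and 11.82 in small intestine organoids, against 6.30 to 7.49 in the other 2 groups. Cd68 and Csf1r lay the other way. Cd68 had 10.18 and 10.12 in gallbladder organoids and 9.83 and 10.06 in liver organoids, against 6.71 and 6.90 in small intestine organoids. Csf1r had 7.15 and 7.31 in gallbladder organoids and 7.69 and 7.92 in liver organoids, against 6.48 and 6.24 in small intestine organoids. Further macrophage markers were low and differed little between these groups: Adgre1 stayed at 5.36 to 5.61, C1qb at 5.94 to 6.24 and Vsig4 at 4.65 to 5.08. The part of these markers in the Hmox1 differences was not tested.

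Against small intestine organoids, 5 members were higher and 1 lower in gallbladder organoids, beside 20.2% and 15.4% of all genes, 35.6% in either direction, with a median of 0.56 against 0.11 for all genes. In liver organoids 4 were higher and 1 lower, beside 14.2% and 12.2%, 26.5% in either direction, with a median of 0.40 against 0.05. Glutathione synthesis was part of both sets: Gclc was higher by 0.85 ± 0.24 in gallbladder organoids (SE; adjusted p = 0.0191) and by 1.91 ± 0.24 in liver organoids (SE; adjusted p = 0.000176), and Gclm by 0.79 ± 0.22 and 0.83 ± 0.22 (SE; adjusted p = 0.0181 in each). Leaving out any 1 of the 4 arrays concerned ended the call of Gclm in both comparisons (adjusted p 0.072 to 0.0852 for gallbladder and 0.0736 to 0.0942 for liver) and that of Gclc for gallbladder (0.0769 to 0.0863). The other pathway genes had 19 higher and 10 lower in gallbladder organoids, with malic enzyme Me1 at 12.42 and 12.32, against 8.56 and 9.11 in small intestine organoids (adjusted p = 2.4e-05). They had 14 higher and 7 lower in liver organoids, Me1 included, at 12.50 and 12.57 (adjusted p = 1.72e-05). Between gallbladder and liver organoids 5 were higher and 2 lower, and at most 1 gene was called when 1 array was left out. With array weights that comparison had 10 higher and 16 lower, with 7399 of all 19938 genes called. With only its own arrays it had 11 higher and 14 lower, with 7092 of all genes called. Array weights also gave more calls against small intestine organoids, 26 higher and 18 lower for gallbladder and 21 higher and 14 lower for liver. Of all 19938 genes, 12112 and 8191 were called in these comparisons with weights, against 7100 and 5275 without.

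**Figure D4:**
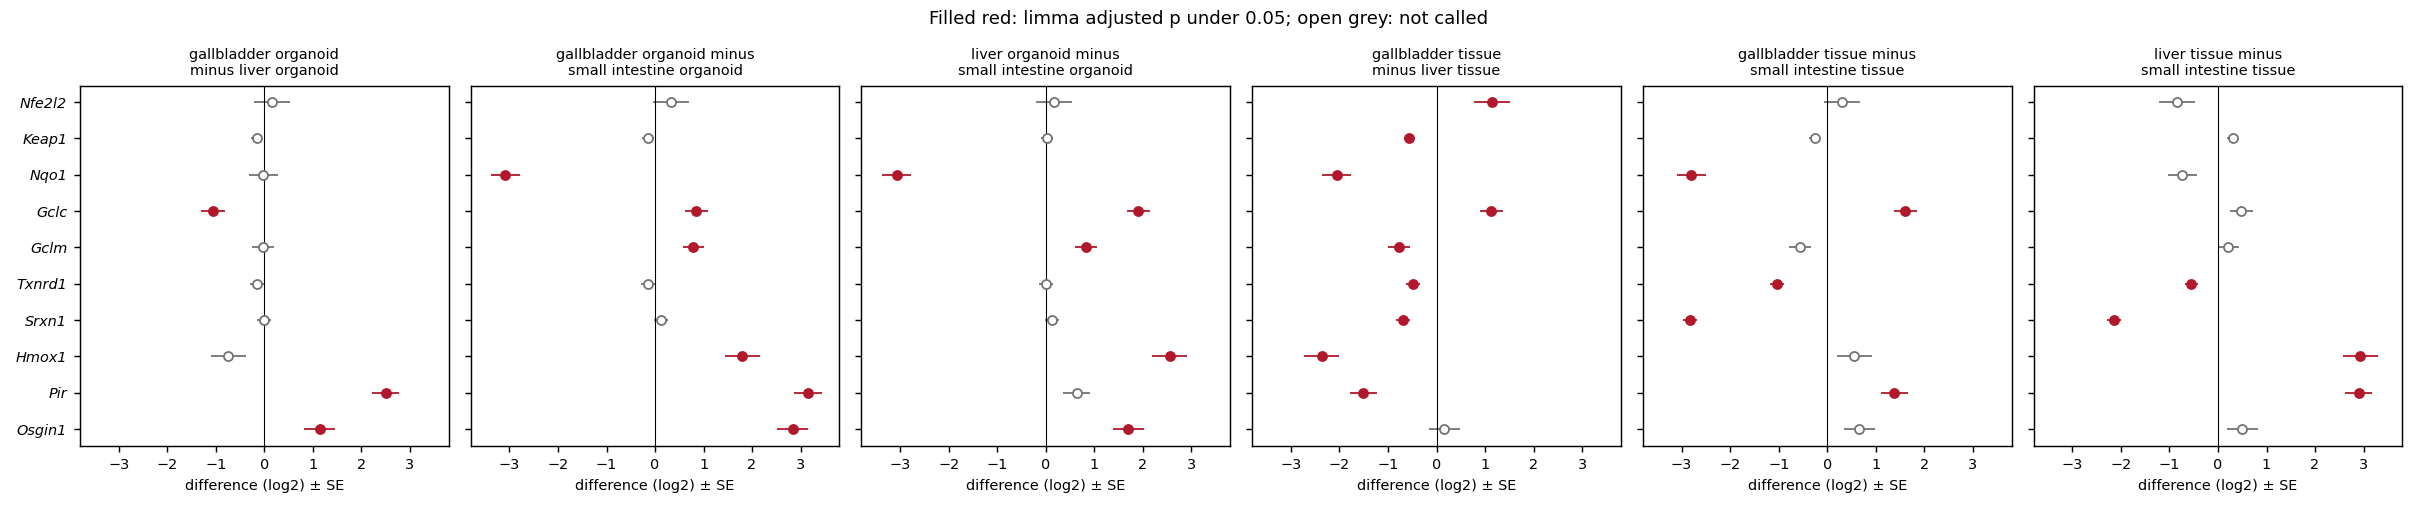
Difference in log2 signal (x axis, ± SE from limma) of the 10 genes between organs, for organoids and for tissues, filled red where the adjusted p is under 0.05. Nqo1 lies near -3 in both comparisons with small intestine organoids, and Srxn1 lies between -2.83 and -2.14 in both comparisons with small intestine tissue.

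Among the tissues, Srxn1 marked the small intestine. It had 8.98 and 9.30 in gallbladder tissue and 9.93 and 9.73 in liver tissue, against 12.05 and 11.89 in small intestine tissue. The differences were -2.83 ± 0.14 for gallbladder (SE; 7.1-fold lower; adjusted p = 2.6e-07) and -2.14 ± 0.14 for liver (SE; 4.4-fold lower; adjusted p = 1.37e-06). In organoids the same gene had 9.47 and 9.44 for gallbladder and 9.48 and 9.45 for liver, against 9.19 and 9.47 for small intestine, and no Srxn1 difference between organoid groups was called.

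Hmox1 and Pir were far above the small intestine level in liver tissue. Hmox1 had 11.01 and 9.81 in liver tissue, against 7.24 and 7.74 in small intestine tissue, a difference of 2.93 ± 0.36 (SE; adjusted p = 0.000107), and gallbladder tissue, with 7.72 and 8.37, differed from liver tissue by -2.37 ± 0.36 (SE; adjusted p = 0.00049). Pir had 10.02 and 10.25 in liver tissue, against 7.37 and 7.10 in small intestine tissue, a difference of 2.90 ± 0.28 (SE; adjusted p = 2.11e-05). The macrophage markers summed to 14.44 to 14.46 in liver tissue, 12.09 to 12.53 in gallbladder tissue and 12.68 to 13.36 in small intestine tissue, and their part in the Hmox1 differences was not tested. Liver tissue replicate 1, which had more Hmox1 and less Nfe2l2 and Gclc, also had more lipocalin 2 (Lcn2), at 13.98 against 11.13 in replicate 2. What set these 2 replicates apart was not tested.

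Gallbladder tissue differed from liver tissue in most members, 2 higher and 7 lower, beside 20.7% and 27.4% of all genes and 48.1% in either direction, although it carried hepatocyte RNA itself. The arrays did not overlap for 9 of the 10 members, against 69.7% of all genes, and the median was -0.62 for the members and -0.09 for all genes. Gclc, with 12.76 and 12.92 in gallbladder tissue, against 11.24 and 12.18 in liver tissue, and Nfe2l2 were the 2 higher ones. Nqo1 differed by -2.06 ± 0.30 (SE; adjusted p = 0.000352) and Keap1 by -0.56 ± 0.12 (SE; adjusted p = 0.00351). The calls of Gclm, Nfe2l2 and Txnrd1 each ended without single arrays. Gclm had an adjusted p of 0.0833 without gallbladder tissue replicate 1 and 0.105 without liver tissue replicate 2. Nfe2l2 had 0.0885 and 0.0626 without gallbladder tissue replicate 1 and 2, and 0.201 without liver tissue replicate 1. Txnrd1 had 0.135 without gallbladder tissue replicate 1 and 0.0898 without liver tissue replicate 1. Under quantile normalisation Gclm and Txnrd1 were not called (adjusted p = 0.119 and 0.056). The differences of Gclc, Gclm and Pir moved by more than 1.5 times but stayed called without some arrays, Gclc to 0.67 without liver tissue replicate 1, Gclm to -1.18 without gallbladder tissue replicate 2 and Pir to -0.96 without gallbladder tissue replicate 1. A fit of these 4 arrays alone called 2 members, and 3824 of all 19938 genes. Of all genes called between these tissues 43% were higher in gallbladder, and 32% with every array centred on its median.

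Against small intestine tissue, gallbladder tissue had 2 members higher and 3 lower, beside 20.7% and 24.3% of all genes, 45% in either direction. Liver tissue had 2 higher and 2 lower, beside 18.7% and 18.8%, 37.5% in either direction. Gclc was higher in gallbladder tissue by 1.61 ± 0.24 (SE; adjusted p = 0.000399), and Nqo1 was lower, with -2.80 ± 0.30 (SE; adjusted p = 4.25e-05). Pir was higher by 1.38 ± 0.28 (SE; adjusted p = 0.00286), and by 0.83 without gallbladder tissue replicate 2 (adjusted p = 0.00258). Txnrd1 was lower in both, with differences of -1.03 ± 0.14 in gallbladder tissue (SE; adjusted p = 0.000284) and -0.55 ± 0.14 in liver tissue (SE; adjusted p = 0.013). With median centring the counts were 2 higher and 5 lower for gallbladder tissue, and 3 higher and 2 lower for liver tissue. The liver call of Txnrd1 ended without liver tissue replicate 2 (adjusted p = 0.0678) or small intestine tissue replicate 1 (adjusted p = 0.0868).

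Of the 61 other pathway genes, 11 were higher and 22 lower in gallbladder against liver tissue, beside 20.7% and 27.4% of all genes, 48.1% in either direction. Gallbladder against small intestine had 14 higher and 16 lower, beside 20.7% and 24.3%, 45% in either direction. Liver against small intestine had 27 higher and 11 lower, beside 18.7% and 18.8%, 37.5% in either direction. The balance in the comparisons of gallbladder moved with the processing. Against liver it was 14 higher and 15 lower under quantile normalisation, 10 and 30 with median centring, and 8 and 8 in a fit of the compared arrays. Against small intestine it was 23 higher and 13 lower under quantile normalisation, 24 and 13 without gallbladder tissue replicate 1, and 11 and 7 in a fit of the compared arrays. Such a fit gave 16 higher and 6 lower for liver against small intestine. Of all 19938 genes, the fits of the compared arrays called 3824 for gallbladder against liver. They called 3224 for gallbladder against small intestine and 3962 for liver against small intestine. Gpx2 was among the furthest apart, at 6.58 and 6.77 in liver tissue, against 12.91 and 12.66 in small intestine tissue (adjusted p = 2.25e-08). The glutathione transferase Gsta3 differed the other way, at 13.04 and 13.42 in liver tissue, against 7.73 and 7.30 in small intestine tissue (adjusted p = 4.3e-08).

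How the members varied together is given as a description over the 7 group means, which share arrays and normalisation. Txnrd1 and Srxn1, the thioredoxin and peroxiredoxin arm, correlated with Pearson r = 0.83 and Spearman rho = 0.82. Pir and Osgin1, both highest in gallbladder organoids, had r = 0.79 and rho = 0.89, and Gclm and Hmox1 r = 0.78 and rho = 0.75. Nqo1 ran against Gclc (r = -0.72, rho = -0.61), so the targets did not follow 1 common order of groups. Nfe2l2 mRNA had r = -0.64 and rho = -0.68 with Nqo1, and r = -0.76 and rho = -0.46 with Keap1.

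Nqo1, the member with the widest span, was also matched against the 4115 genes whose group means span at least 2 log2 units. The 5 genes with the closest pattern over the 7 group means were Fabp2 (r = 0.984), Sult1b1 (0.981), Tm6sf2 (0.98), Aamdc (0.978) and Slc3a1 (0.977). Fabp2, the intestinal fatty acid binding protein, had group means of 6.48 in differentiated gallbladder organoids, 5.41 in gallbladder organoids and 5.30 in liver organoids, against 12.63 in small intestine organoids and 14.17 in small intestine tissue, with 11.54 in liver tissue. None of the 5 was on the list of pathway genes, by the way they were chosen.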

How the data were processed

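RNA of 7 groups, 2 samples each, had been measured on 14 Affymetrix arrays. The deposited log2 values were made by the authors with RMA, per the submitters' processing notes (version not given in the sources used here), and were used without further normalisation. The array build is not given in the sources used here. Of 35556 probe sets, 21789 had 1 gene symbol in the platform annotation, 1621 had several and 12146 were not listed there. The single-symbol probe set with the highest mean over all arrays stood for its gene, which gave 19938 genes, 999 of them with a choice of probe sets. Array medians over all probe sets were 7.12 to 7.44.

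The model, 1 mean per group with no covariate, used every array (limma 3.58.1, R 4.3.3; residual df 7), and p-values were adjusted by Benjamini-Hochberg over all genes. On simulated data for gallbladder against liver organoids, of 50 genes planted at each size, 9 were recovered at 0.5 log2, 37 at 1, 48 at 2 and 49 at 3, with 9 false calls among 152. The simulation gave a gene the same spread in all groups, and changed far fewer genes than the 2530 called in the real comparison. Its recovery therefore does not carry over to the real comparisons. The members and gene lists were chosen with earlier results of these data known. Named were the 10 members; per pair of groups, up to 5 called pathway genes per direction with the largest differences and no overlap; and the 5 genes most correlated with Nqo1. Some of those were left unprinted for length. Alternatives were other scalings, filters, weights, a replicate block, fits of the compared arrays only, and leaving out each array, which assumes that a lone array varies like the others.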

Additional observations from a re-analysis of the deposited data

Results flagged for a closer look

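The step between tissue and culture differed between organs in 14 tests, on every member but Nfe2l2 and Keap1. Each was an interaction term of limma's fit with an adjusted p under 0.05. For gallbladder against liver 5 of the 10 members were called, beside 39.8% of all genes. For gallbladder against small intestine 5 were called, beside 36.6% of all genes, and for liver against small intestine 4, beside 35.2%. Each value is the organoid minus tissue difference in the organ named first minus that in the organ named second, in log2 units. For gallbladder against liver the terms were 4.02 for Pir (adjusted p = 6.12e-05), -2.19 for Gclc (0.000843), 2.04 for Nqo1 (0.004), 0.68 for Srxn1 (0.0223) and 1.62 for Hmox1 (0.0286). For gallbladder against small intestine they were 2.95 for Srxn1 (8.74e-06), 2.18 for Osgin1 (0.00463), 1.77 for Pir (0.00727), 1.36 for Gclm (0.00799) and 0.88 for Txnrd1 (0.00831). For liver against small intestine they were 2.27 for Srxn1 (1.82e-05), -2.25 for Pir (0.00146), -2.33 for Nqo1 (0.00158) and 1.43 for Gclc (0.00761). The terms of Hmox1 and Srxn1 between gallbladder and liver ended without single arrays, with adjusted p of 0.0501 to 0.0896 for Hmox1 and 0.0518 to 0.0667 for Srxn1 over the 6 arrays concerned. Without liver tissue replicate 1 the Hmox1 term was 1.03.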

How the results depend on the processing

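Counts of called members stayed within 1.5 times of the reported ones under quantile normalisation, the filter on dim genes, averaged probe sets and an intensity trend. They moved as follows. Differentiated against undifferentiated gallbladder organoids had 2 calls, but 6 with array weights and 6 when only those arrays were fitted. These alternatives called 5720 and 5353 of all 19938 genes, against 943 in the reported fit. Gallbladder organoids against tissue had 3, but 6 with median centring. A required difference of 1 log2 unit left 2 in small intestine organoids against tissue, 5 in gallbladder against liver tissue and 1 in the average over organs. Fits of the compared arrays gave 2 in small intestine organoids against tissue and 2 in gallbladder against liver tissue, with 5575 and 3824 of all genes called. Without 1 array the counts were 0 to 0 for differentiation, 2 to 6 for gallbladder organoids against tissue, 2 to 5 for small intestine, 1 to 1 for gallbladder against liver organoids, and 3 to 8 for the gallbladder against liver interaction. On differentiation Keap1 ranged over -0.12 to 0.02 without 1 array, positive without differentiated replicate 2, and Osgin1 over -0.01 to 0.12, negative without gallbladder organoid replicate 1, neither called in any fit. Slc3a2 in gallbladder against liver tissue became 0.06 under quantile normalisation. The cause of these shifts was not tested. Centring shifted the median of all genes by -0.115 in gallbladder against liver tissue and by 0.119 in the gallbladder against liver interaction.

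Deviations of arrays with the same replicate number correlated by -0.104 to 0.139 over 21 pairs of groups. With 2 arrays per group, such low values cannot exclude that samples of different groups came from the same animals or cultures. With the replicate block, differentiation kept a count of 2, and gallbladder and liver tissue against small intestine tissue had 6 and 5 calls in place of 5 and 4. Crossing the numbers of the differentiated organoids, chosen after seeing the data, also gave 2.

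Changes of 0.5 log2 units were mostly missed in simulated data, whose spread and number of changed genes differ from those of the real comparisons. With 2 arrays per group, the absence of a call is no evidence of equality.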
